A study of Mus musculus with 2 samples.

Results

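Amino acid carriers are the membrane proteins that move amino acids across the endothelium of brain vessels and into and out of every cell. The members of 7 solute carrier families, Slc1, Slc3, Slc6, Slc7, Slc36, Slc38 and Slc43, were read from a pair of expression arrays of mouse brain endothelium. All probe sets annotated to a single gene symbol that opens with the name of one of these families were taken, and each gene was represented by the probe set with the highest mean signal of the 2 arrays. This gave 63 genes, with 125 probe sets, of the 18194 genes and 45101 probe sets of the table.

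The study asked how endothelial cells that carry Prominin 1 (CD133) differ from those that do not. CD31+CD133+ cells (Prom1+ endothelium) and CD31+CD133- cells (Prom1- endothelium) were sorted by flow cytometry from the normal brain vasculature of C57BL/6 mice, and total RNA of each was hybridized to 1 array. Neither the age of these mice nor the number pooled per array was stated in the sources used here. There were thus no replicates to check a difference against, and no test was made.

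In brain endothelium, which is sealed by tight junctions, amino acids cross both the luminal and the abluminal membrane on carriers. Exchangers for large neutral and for cationic amino acids supply the brain with essential amino acids, whereas sodium-coupled carriers, for example of glutamine and glutamate, can draw amino acids out of the brain fluid against their gradient. Other members act on lysosomes, where they release amino acids or report them to the mTORC1 kinase, and many members of Slc6 take up neurotransmitters.

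Signals are given in array medians, that is, as multiples of the median signal over all probe sets of the same array. Signals under a floor of 1.67 array medians were taken as not measured and were raised to it before folds were formed. Where only 1 array reached the floor, the fold is therefore a lower bound, written as at least N-fold. Signals of different probe sets depend on their sequences and do not rank transcripts by abundance. Genes were counted as higher or lower at a fold of at least 2 between the Prom1+ and the Prom1- array.

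The label of the sort was not mirrored by its own transcript. *Prom1* gave 159 array medians in the sample labelled Prom1+, against 196 in that labelled Prom1-, a log2 ratio of -0.30. These arrays do not settle whether the labels are right, and with the labels exchanged every ratio given here would change its sign. *Pecam1*, which encodes CD31, gave 69.2 array medians in Prom1+ cells, against 48.2 in Prom1- cells. Of 25 measured pan-endothelial genes 3 (12%) were higher and 2 (8%) lower, beside 28.2% and 4.77% of all genes that reached the floor. None of 12 genes of the brain barrier differed by 2-fold. Only 1 of them had the higher signal in the Prom1+ array, and their median log2 ratio was -0.24. Over all genes with a mean signal of at least 64 array medians the median was 0.17. Under the 5 other scalings given below, the barrier median lay between -0.78 and 0.78. All 12 were bright, with at least 98.2 array medians on both arrays, and few genes of any kind differed at such signals. Among genes with a mean signal of at least 64 array medians, 0.83% were higher and 1.08% lower. Markers of other cell types were present on both arrays, and many were lower in the Prom1+ array. This held for 16 of 19 measured markers of pericytes and smooth muscle, whose summed signal was 660 array medians in Prom1+ cells, against 1892 in Prom1- cells. It held for 11 of 16 markers of microglia and macrophages, with a sum of 214 array medians in Prom1+ cells against 433 in Prom1- cells. Of 9 markers of fibroblasts and meninges 5 were lower, with a sum of 252 array medians in Prom1+ cells against 676 in Prom1- cells. Fewer cells of a type and less RNA per cell cannot be told apart in such samples.

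The floor was reached by 33 of the 63 carrier genes in at least 1 population. Among these, 12 (36.4%) were at least 2-fold higher in the Prom1+ array, 3 (9.09%) were lower by 2-fold or more, and the other 18 stayed within 2-fold. Over all 10793 genes that reached the floor, 28.2% were higher and 4.77% were lower. A few genes made up the difference between the carriers and this background in either direction. The median log2 ratio of the 26 carriers measured on both arrays was 0.53, against 0.69 over the 9360 such genes of the table. Of these 26 ratios 18 (69.2%) were above 0, beside 8046 (86.0%) of the 9360. Of the 63 genes, 3 (*Slc7a6os*, *Slc36a1os*, *Slc6a19os*) are named only for lying on the strand opposite a carrier, and without them 11 of 32 genes were higher and 3 lower.

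**Figure D1:**
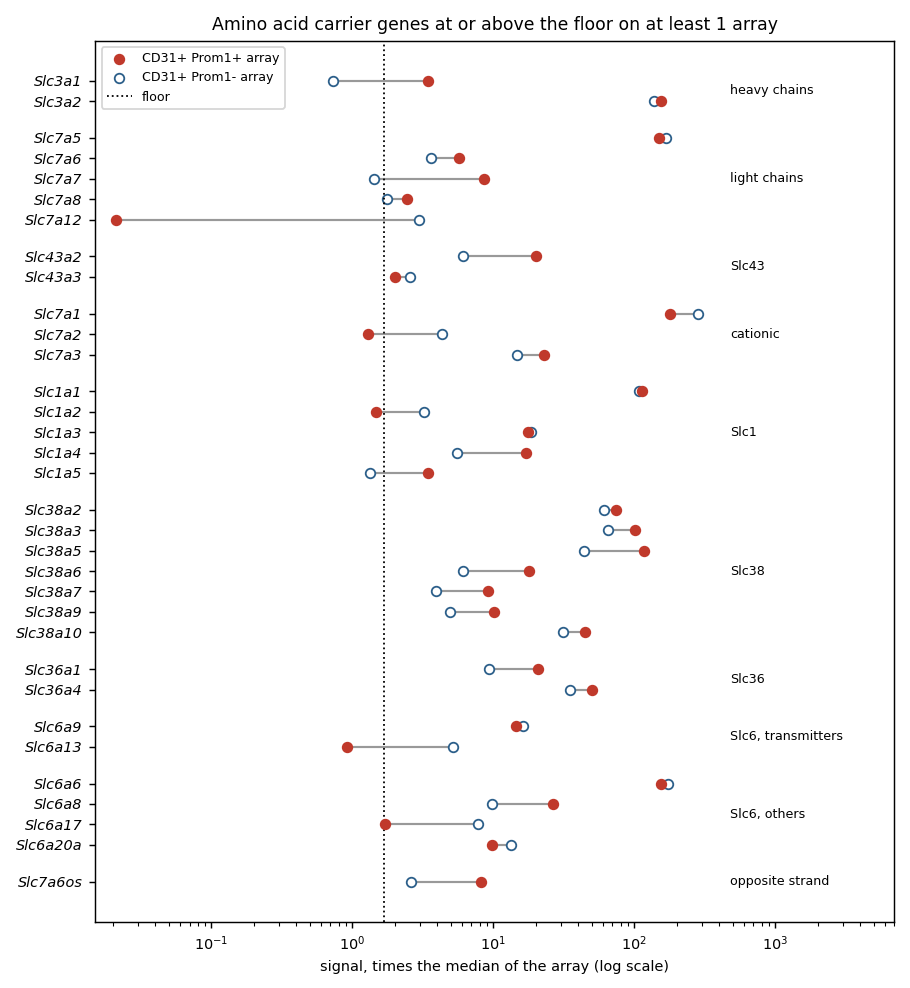
Signals of the 33 carrier genes at or above the floor in either population, in array medians on a log scale, in the Prom1+ array (filled) and the Prom1- array (open), grouped by family. A line joins the arrays of each gene, the dotted line is the floor of 1.67 array medians, and all 7 Slc38 genes have their Prom1+ point on the right.

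The ratio of the arrays depended on signal, and so did the counts. Few differed among genes with a mean signal (from the mean of the log2 values) of at least 64 array medians, where 0.83% of 1205 genes were higher and 1.08% were lower, with a median log2 ratio of 0.17. The 8 carriers in this class were *Slc1a1*, *Slc3a2*, *Slc6a6*, *Slc7a1*, *Slc7a5*, *Slc38a2*, *Slc38a3* and *Slc38a5*, with a median of 0.12, and *Slc38a5* alone passed the 2-fold rule. From 16 to 64 array medians, 24.9% of 3747 genes were higher and 1.44% lower, and 1 of 5 carriers, *Slc6a8*, was higher. Between the floor and 16 array medians, 40.2% of 4408 genes were higher and 5.1% lower, beside 7 of 13 carriers higher and 1 lower. When this trend was removed by a loess curve of the log2 ratio on signal, the medians over the same 26 carriers and 9360 genes were both 0.03, and 3 carriers were higher and 6 lower, beside 5.54% and 7.87% of all genes. The carriers that stayed higher were *Slc3a1*, *Slc7a7* and *Slc38a5*.

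**Figure D2:**
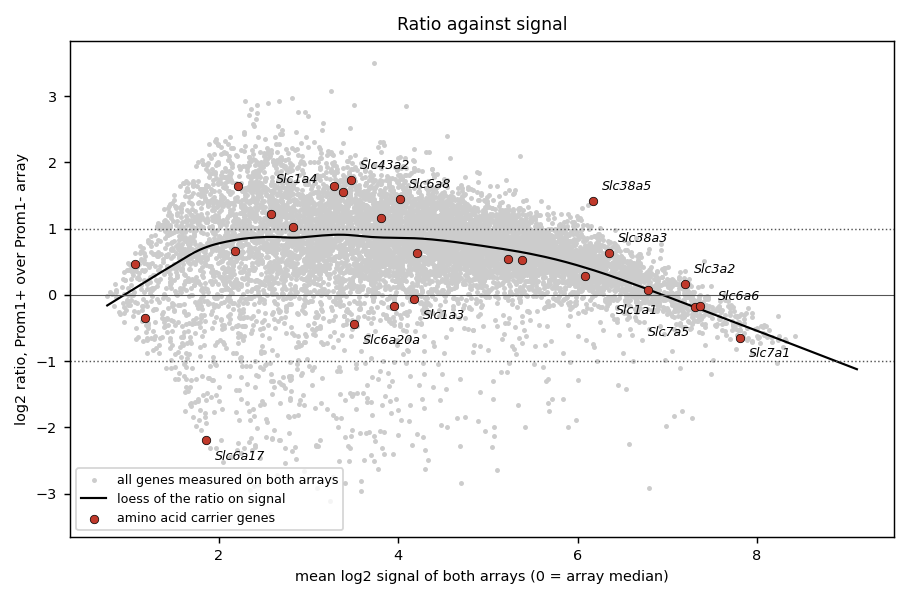
Log2 ratio of the Prom1+ over the Prom1- array against the mean log2 signal, for all genes measured on both arrays (grey) and the carriers (red), with the loess curve (line) and dotted lines at 2-fold. *Slc38a5*, with a log2 ratio of 1.41, stands above every other gene with a mean signal of at least 64 array medians.

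The sequences before the start sites of 4 carriers that were at least 2-fold higher are printed here because they hold short motifs linked to amino acid supply. The motifs were chosen after the values had been seen. One is TGATGNAA, the amino acid response element to which ATF4 binds when amino acids are scarce, and the other is CACGTG, the E-box to which Myc and the lysosomal regulator TFEB can bind. Both strands were searched over the 250 bases before to the 50 bases after each RefSeq start site of GRCm38.p6, and 46 of the 63 genes had such a record. Each sequence below is written 5′ to 3′ on the strand of the gene and ends 30 bases after the start, with the motif in capitals. Of the several start sites of *Slc7a7* the one with the most matches is shown. *Slc38a5* (chrX:8271131-8271410, plus strand) holds 1 E-box and *Slc36a1* (chr11:55204090-55204369, plus strand) holds 2. *Slc7a7* (chr14:54417915-54418194, minus strand) holds 2 amino acid response elements and *Slc1a4* (chr11:20332684-20332963, minus strand) holds 1, there written in its reverse complement.
Slc38a5: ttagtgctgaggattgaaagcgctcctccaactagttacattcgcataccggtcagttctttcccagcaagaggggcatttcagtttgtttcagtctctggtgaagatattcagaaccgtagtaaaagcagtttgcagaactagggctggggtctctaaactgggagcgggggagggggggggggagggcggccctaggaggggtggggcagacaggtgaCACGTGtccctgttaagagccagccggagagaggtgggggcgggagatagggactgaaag
Slc7a7: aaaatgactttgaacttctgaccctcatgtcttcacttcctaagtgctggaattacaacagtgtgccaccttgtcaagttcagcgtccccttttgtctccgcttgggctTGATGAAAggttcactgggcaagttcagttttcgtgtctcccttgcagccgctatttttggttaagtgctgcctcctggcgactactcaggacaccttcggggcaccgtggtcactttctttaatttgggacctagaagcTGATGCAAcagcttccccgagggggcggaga
Slc1a4: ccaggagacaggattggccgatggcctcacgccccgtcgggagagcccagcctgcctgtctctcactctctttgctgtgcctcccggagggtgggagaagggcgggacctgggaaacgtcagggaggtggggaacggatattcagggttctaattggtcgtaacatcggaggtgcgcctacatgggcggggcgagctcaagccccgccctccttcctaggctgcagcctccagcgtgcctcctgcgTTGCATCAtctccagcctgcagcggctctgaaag
Slc36a1: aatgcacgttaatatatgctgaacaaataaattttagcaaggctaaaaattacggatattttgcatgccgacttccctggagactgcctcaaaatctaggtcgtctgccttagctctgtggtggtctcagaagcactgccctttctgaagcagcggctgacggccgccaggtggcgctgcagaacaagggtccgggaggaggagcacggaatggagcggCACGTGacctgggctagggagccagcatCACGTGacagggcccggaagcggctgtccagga
The amino acid response element was present in 3.97% of all 32851 promoters and, counted by gene, in 4.51% of 27025 genes. Among the carriers it was found in 4 of 46 (*Slc1a4*, *Slc6a21*, *Slc7a7*, *Slc7a11*), which included 2 of the 10 higher carriers with a record. The E-box was present in 7.15% of promoters and 8.09% of genes, in 9 of 46 carriers and in 3 of the 10 higher ones, *Slc36a1*, *Slc38a5* and *Slc38a7*. The other carriers with an E-box, *Slc1a6*, *Slc1a7*, *Slc6a3*, *Slc6a16*, *Slc7a14* and *Slc43a1*, were under the floor on both arrays. The last motif searched, the antioxidant response element TGACNNNGC, was present in 12.4% of promoters and 14% of genes. It was found in 10 of 46 carriers, 1 of them among the higher 10. These matches are descriptions of the sequence and not binding sites.

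Carriers of the Slc7 light chain group work as dimers with a heavy chain of Slc3, which takes them to the membrane. *Slc3a2*, the heavy chain 4F2hc (CD98), had 155 array medians in Prom1+ cells, against 138 in Prom1- cells, a difference of 1.12-fold. Its main partner at the blood-brain barrier is *Slc7a5* (LAT1), the exchanger of large neutral amino acids such as leucine and phenylalanine. *Slc7a5* had 149 array medians in Prom1+ cells, against 169 in Prom1- cells, which was 1.14-fold lower. Both chains of this exchanger were thus bright in both populations and did not differ by 2-fold on the deposited scale. Over the other scalings the log2 ratio lay between -0.38 and 1.19 for *Slc3a2*, which was called higher with the hybridization controls set equal, and between -0.73 and 0.84 for *Slc7a5*.

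The other light chains lay closer to the floor. *Slc7a7* (y+LAT1), which exchanges cationic for neutral amino acids and is known from epithelia and macrophages, had 8.56 array medians in Prom1+ cells, against 1.43 (below the floor) in Prom1- cells, at least 5.11-fold higher. No other carrier had as large a bound or ratio in this direction, and the call held under all 5 other scalings tried. A further probe set of *Slc7a7* lay under the floor on both arrays, and when each gene was given the mean of its probe sets the log2 ratio of *Slc7a7* was 1.16 in place of 2.35. Of the 16 markers of microglia and macrophages 11 were lower in the Prom1+ array and 1, *Cd14*, was higher, with 7.86 array medians in Prom1+ cells against 2.90 in Prom1- cells, and their part in the result was not tested. *Slc7a6* (y+LAT2), a close relative of the same function, had 5.72 array medians in Prom1+ cells, against 3.61 in Prom1- cells (1.58-fold higher). Its other probe set gave a larger difference, with 6.54 array medians in Prom1+ cells against 1.69 in Prom1- cells, 3.87-fold higher. *Slc7a8* (LAT2), a further exchanger of neutral amino acids, had 2.46 array medians in Prom1+ cells, against 1.77 in Prom1- cells, both close to the floor. *Slc7a12* had 0.0212 array medians in Prom1+ cells, below the floor, against 2.95 in Prom1- cells, at least 1.76-fold lower, and so did not pass 2-fold. The second heavy chain, *Slc3a1* (rBAT), which serves cystine uptake in kidney, had 3.42 array medians in Prom1+ cells, against 0.731 (below the floor) in Prom1- cells, at least 2.04-fold higher and just inside the rule. *Slc7a9*, *Slc7a10*, *Slc7a11*, *Slc7a13* and *Slc7a15* were under the floor on both arrays, among them the cystine and glutamate exchanger xCT (*Slc7a11*).

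Slc43 holds carriers of neutral amino acids that need no heavy chain. *Slc43a2* (LAT4), which lets branched-chain and aromatic amino acids leave cells by facilitated diffusion, had 20.2 array medians in Prom1+ cells, against 6.07 in Prom1- cells, 3.33-fold higher. Its second probe set, with 4.16 array medians in Prom1+ cells against 2.41 in Prom1- cells, was 1.73-fold higher. With loess the ratio was 0.84 (log2), which is under 2-fold, and under the other 4 scalings it was called higher. *Slc43a3*, a carrier of purine nucleobases despite its family, had 2.01 array medians in Prom1+ cells, against 2.56 in Prom1- cells. *Slc43a1* was not measured.

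Cationic amino acids, among them arginine, the substrate of nitric oxide synthase, enter brain endothelium mainly through *Slc7a1* (CAT1). *Slc7a1* had 180 array medians in Prom1+ cells, against 281 in Prom1- cells, 1.56-fold lower, and ranked 38th from the lowest ratio among the 1205 genes of its signal class. After loess its log2 ratio was -0.20 in place of -0.64, and it ranked 201st from the lowest. Its other probe set, with 169 array medians in Prom1+ cells and 167 in Prom1- cells, did not share the difference. *Slc7a2* (CAT2), a carrier of the same substrates that is induced in macrophages and muscle, had 1.30 array medians in Prom1+ cells, below the floor, against 4.31 in Prom1- cells, at least 2.57-fold lower. The other probe sets of *Slc7a2* were under the floor on both arrays. The markers of pericytes and smooth muscle and of macrophages were lower in the same array, and their part in this result was not tested. *Slc7a3* (CAT3) had 22.9 array medians in Prom1+ cells, against 14.8 in Prom1- cells, 1.55-fold higher. *Slc7a4* and *Slc7a14* were under the floor on both arrays.

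The Slc1 family unites the carriers of glutamate and aspartate with exchangers of small neutral amino acids. *Slc1a1* (EAAC1), which carries glutamate and cysteine, had 113 array medians in Prom1+ cells, against 108 in Prom1- cells. A further probe set had 64.4 array medians in Prom1+ cells and 66.3 in Prom1- cells. The dimmest, with 12.7 array medians in Prom1+ cells against 5.76 in Prom1- cells, was 2.21-fold higher. *Slc1a3* (GLAST), a glutamate carrier best known from astrocytes, had 17.7 array medians in Prom1+ cells, against 18.5 in Prom1- cells. Its log2 ratio of -0.06 ranked 195th from the lowest of the 3747 genes of its signal class, whose median was 0.73, and was -0.92 after loess. A further probe set of *Slc1a3* had 2.08 array medians in Prom1+ cells, against 1.36 (below the floor) in Prom1- cells. The rest were below the floor on both arrays. *Slc1a2* (GLT-1), the main glutamate carrier of astrocytes, had 1.46 array medians in Prom1+ cells, below the floor, against 3.23 in Prom1- cells, at least 1.93-fold lower and just outside the rule. Of 14 astrocyte markers 7 were measured, 2 of them higher and 2 lower. The list summed to 119 array medians in Prom1+ cells, against 105 in Prom1- cells. Most of both sums came from *Gja1*, with 84.5 array medians in Prom1+ cells against 67.0 in Prom1- cells. The higher markers were *Fgfr3* (12.8 in Prom1+ cells against 4.52 in Prom1- cells) and *Sox9* (8.11 against 3.64). The lower ones were *S100b* (3.11 against 15.9) and *Gjb6* (0.280, below the floor, against 3.57). *Gfap* and *Aqp4*, which define astrocytes, were under the floor on both arrays, *Aqp4* at 0.294 against 1.61. The part of astrocytes in these carrier results was not tested.

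Both neutral amino acid exchangers of Slc1 were called higher in the Prom1+ array on the deposited scale. *Slc1a4* (ASCT1), which exchanges serine, alanine and cysteine, had 17.2 array medians in Prom1+ cells, against 5.52 in Prom1- cells, 3.11-fold higher. A further probe set ran the other way, with 0.593 array medians in Prom1+ cells, below the floor, against 1.83 in Prom1- cells, at least 1.09-fold lower, and the last was below the floor on both arrays. The mean of the log2 values of its probe sets had a log2 ratio of -0.20. The direction of *Slc1a4* therefore rests on its bright probe set, and its call was lost with quantile normalization (0.91) and loess (0.73). *Slc1a5* (ASCT2), which also carries glutamine, had 3.44 array medians in Prom1+ cells, against 1.33 (below the floor) in Prom1- cells, at least 2.05-fold higher. Its call was kept under 1 of the 5 other scalings, the hybridization controls set equal. The floor of 1.67 array medians corresponds to 100 on the scale of the target of 500. With a floor of 200 on that scale the log2 ratio of *Slc1a5* was 0.04. *Slc1a6* and *Slc1a7* were not measured.

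Slc38 carriers move glutamine and other small neutral amino acids, most of them coupled to sodium. All 7 measured members had the higher signal in the Prom1+ array, as did 86.0% of the 9360 genes measured on both arrays. Of the 7 members 4 (57.1%) passed 2-fold, beside 28.2% of all genes that reached the floor. Among these 4, *Slc38a6*, *Slc38a7* and *Slc38a9* lay between the floor and 16 array medians, where 40.2% of genes were higher. The median log2 ratio of the 7 members was 1.03, and under the 5 other scalings it lay between 0.34 and 2.05. The shared direction held on the deposited scale and with the pan-endothelial genes or the hybridization controls set equal. *Slc38a2* and *Slc38a10* were below 0 under the others, at -0.12 and -0.14 with loess, while the other 5 members stayed above 0. *Slc38a5* (SN2, SNAT5), which couples glutamine, serine and glycine to sodium and exchanges them for protons, had 118 array medians in Prom1+ cells, against 44.1 in Prom1- cells, 2.66-fold higher. Its log2 ratio of 1.41 was the highest of the 1205 genes with a mean signal of at least 64 array medians, the next being 1.35, and after loess its ratio of 1.04 again ranked 1st of this class. With both arrays scaled to the same trimmed mean the ratio was 0.87, under 2-fold, and it was called higher under the other 4 scalings. The array carries 1 probe set for *Slc38a5*, so that no other probe set bears on it.

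The relatives of *Slc38a5* at the cell surface differed less. *Slc38a3* (SN1, SNAT3), the related glutamine carrier found in astrocytes and brain endothelium, had 102 array medians in Prom1+ cells, against 65.3 in Prom1- cells, 1.56-fold higher. Its other probe set, with 8.55 array medians in Prom1+ cells against 4.38 in Prom1- cells, was 1.95-fold higher. *Slc38a2* (SNAT2), which is induced when amino acids are scarce, had 74.8 array medians in Prom1+ cells, against 61.1 in Prom1- cells, 1.22-fold higher. Its further probe sets gave 1.41-fold and 2.83-fold, the larger value at the lower signal. *Slc38a1* and *Slc38a4* were under the floor on both arrays.

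Of the Slc38 members tied to lysosomes, *Slc38a9*, the arginine sensor of mTORC1, had 10.1 array medians in Prom1+ cells, against 4.96 in Prom1- cells. This was 2.04-fold higher and just inside the rule, and of its 5 other measured probe sets all had the higher signal in the Prom1+ array but only 1 passed 2-fold, at 2.80-fold. Among the other scalings, only that with the hybridization controls set equal kept the call of *Slc38a9*. *Slc38a7* (SNAT7), which lets glutamine out of lysosomes, had 9.13 array medians in Prom1+ cells, against 3.93 in Prom1- cells, 2.32-fold higher. Its call was kept with the pan-endothelial genes or the hybridization controls set equal and lost under the other scalings. Of the remaining members, *Slc38a6* had 17.9 array medians in Prom1+ cells, against 6.09 in Prom1- cells, 2.94-fold higher. *Slc38a10* had 45.0 array medians in Prom1+ cells, against 31.0 in Prom1- cells, 1.45-fold higher. Its dimmer probe sets gave 1.97-fold, 1.99-fold and at least 1.27-fold, so that no probe set of *Slc38a10* passed the rule.

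**Figure D3:**
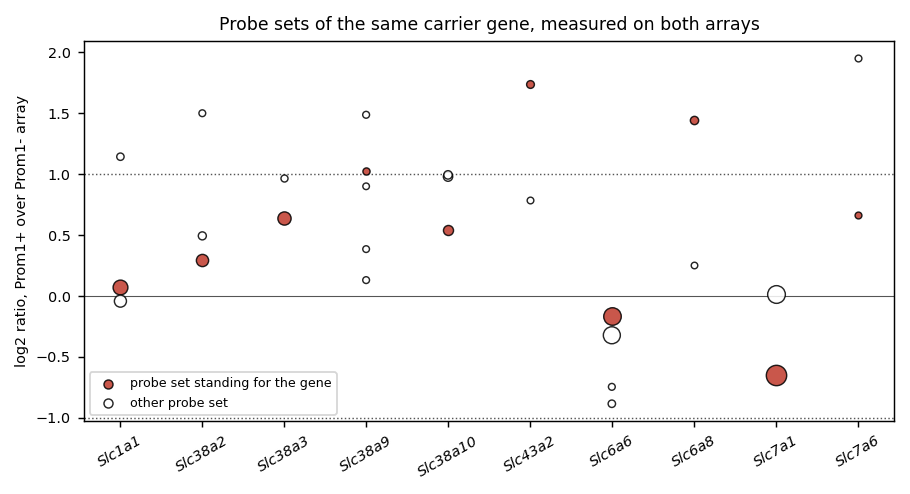
Log2 ratio of the Prom1+ over the Prom1- array for the 10 carriers with more than 1 probe set measured on both arrays, with filled points for the probe set that stands for the gene, open points for the others, area growing with mean signal, and dotted lines at 2-fold. On the deposited scale all probe sets of *Slc6a8*, *Slc7a6*, *Slc38a2*, *Slc38a3*, *Slc38a9*, *Slc38a10* and *Slc43a2* lie above 0. All of *Slc6a6* lie below it, and *Slc1a1* and *Slc7a1* have probe sets on both sides.

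The proton-coupled Slc36 carriers take up small amino acids and sit in part on lysosomes. *Slc36a1* (PAT1) had 20.8 array medians in Prom1+ cells, against 9.35 in Prom1- cells, 2.23-fold higher. *Slc36a4* (PAT4), a carrier of proline and tryptophan, had 50.01 array medians in Prom1+ cells, against 34.8 in Prom1- cells, 1.44-fold higher. *Slc36a2* and *Slc36a3* were not measured. The call of *Slc36a1* was kept only with the hybridization controls set equal among the other scalings.

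Most transmitter carriers of Slc6 were not measured. *Slc6a2*, *Slc6a3*, *Slc6a4*, *Slc6a5*, *Slc6a11* and *Slc6a12*, which take up monoamines, glycine, GABA or betaine, were under the floor on both arrays. *Slc6a9* (GlyT1), a carrier of glycine, had 14.6 array medians in Prom1+ cells, against 16.3 in Prom1- cells, 1.12-fold lower, and its log2 ratio was -1.02 with loess. *Slc6a13* (GAT2), a carrier of GABA and taurine known from the meninges and from brain vessels, had 0.918 array medians in Prom1+ cells, below the floor, against 5.18 in Prom1- cells, at least 3.09-fold lower. This call held under all 5 other scalings. The markers of fibroblasts and meninges, and of pericytes, were lower in the same array, with the sums given above, and their part in the result was not tested.

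Of the remaining Slc6 carriers, *Slc6a6*, the taurine carrier of the blood-brain barrier, had 155 array medians in Prom1+ cells, against 174 in Prom1- cells. All 4 of its probe sets were lower in the Prom1+ array, by 1.12-fold, 1.25-fold, 1.84-fold and 1.68-fold, and none passed the rule. The direction of its first probe set depended on the scaling. Its log2 ratio was -0.71 with equal trimmed means and -0.36 with the pan-endothelial genes set equal. It was 0.05 after both loess and quantile normalization and 0.86 with equal hybridization controls. After loess the other probe sets stayed below 0, at -0.17, -1.79 and -1.56. *Slc6a8*, the creatine carrier, had 26.7 array medians in Prom1+ cells, against 9.79 in Prom1- cells, 2.73-fold higher, whereas its dimmer probe set, with 2.45 array medians in Prom1+ cells against 2.06 in Prom1- cells, was 1.19-fold higher. The call of *Slc6a8* was kept with the pan-endothelial genes or the hybridization controls set equal and lost under the other scalings. *Slc6a20a*, a carrier of proline, had 9.75 array medians in Prom1+ cells, against 13.3 in Prom1- cells, 1.36-fold lower, and was called lower with quantile normalization (-1.18) and loess (-1.34). *Slc6a17*, which loads neutral amino acids into synaptic vesicles of neurons, had 1.70 array medians in Prom1+ cells, against 7.74 in Prom1- cells, 4.56-fold lower. Its log2 ratio of -2.19 was the lowest of the 26 carriers measured on both arrays, and the call held under all 5 other scalings. A further probe set had 0.0500 array medians in Prom1+ cells, below the floor, against 2.40 in Prom1- cells, at least 1.43-fold lower, and the last was below the floor on both arrays. The mean over the probe sets of *Slc6a17* had a log2 ratio of -0.28 and ended the call. With a floor of 200 on the scale of the target the ratio was -1.21.

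Some neuronal markers differed in the same direction as *Slc6a17*. Of 6 measured neuronal markers 3 were lower and none higher, among them *Syt1*, with 0.0152 array medians in Prom1+ cells, against 10.2 in Prom1- cells, and *Snap25*, a protein of transmitter release, with 0.649 array medians in Prom1+ cells against 4.89 in Prom1- cells. The sum of the list was 85.02 array medians in Prom1+ cells, against 75.6 in Prom1- cells. Most of it came from *Stmn2*, a microtubule regulator of neurons, which ran the other way, with 79.5 array medians in Prom1+ cells against 45.1 in Prom1- cells. *Rbfox3*, which defines neurons, was under the floor on both. Their part in the result was not tested. *Slc6a7*, *Slc6a14*, *Slc6a15*, *Slc6a16*, *Slc6a18*, *Slc6a19*, *Slc6a20b* and *Slc6a21* were not measured. Of the genes named for the opposite strand, *Slc7a6os* had 8.18 array medians in Prom1+ cells, against 2.62 in Prom1- cells, 3.12-fold higher, and the others were under the floor. In all, 30 of the 63 genes were under the floor on both arrays, with signals of at most 0.870 array medians in Prom1+ cells and 0.560 in Prom1- cells.

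Which scale is set equal between the arrays decides many of these calls. With equal medians, 12 carriers were higher and 3 lower, beside 3045 and 515 of all genes. With equal trimmed means, 5 were higher and 6 lower, beside 875 and 857. With quantile normalization the counts were 4 and 6, and with loess 3 and 6, beside 689 and 841 and beside 598 and 849 of all genes. With the pan-endothelial genes set equal at their median, they were 8 and 4, beside 1999 and 583, and with the hybridization controls set equal 21 and 2, beside 8644 and 189. With equal medians the median log2 ratio of all genes measured on both arrays was 0.69. Under the 5 other scalings it was 0.16, 0.10, 0.03, 0.50 and 1.70, in the same order. *Slc7a7* was higher and *Slc6a13* and *Slc6a17* were lower under each of them. Of the 12 higher carriers, the 5 kept with equal trimmed means were *Slc1a4*, *Slc7a6os*, *Slc7a7*, *Slc38a6* and *Slc43a2*, and the 4 kept with quantile normalization were *Slc7a6os*, *Slc7a7*, *Slc38a5* and *Slc43a2*. Setting the pan-endothelial genes equal kept 8 of them and setting the hybridization controls equal kept all 12. The carriers newly called lower were *Slc1a2*, *Slc7a1* and *Slc7a12* with equal trimmed means, *Slc1a2*, *Slc6a20a* and *Slc7a12* with quantile normalization, *Slc1a2*, *Slc6a9* and *Slc6a20a* with loess, and *Slc1a2* with the pan-endothelial genes set equal.

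**Figure D4:**
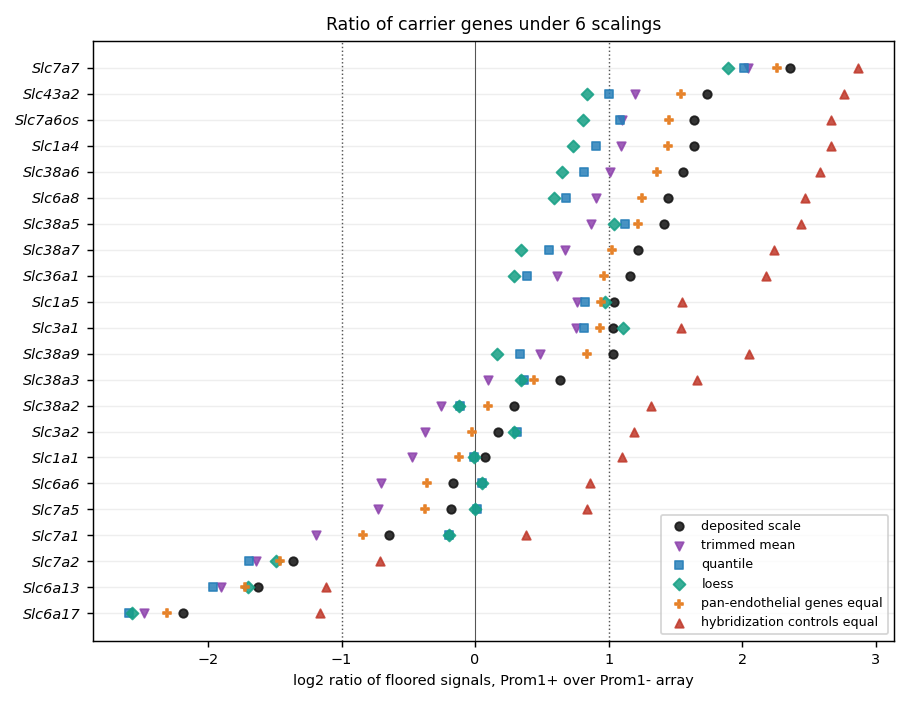
Log2 ratio of the Prom1+ over the Prom1- array for the carriers at least 2-fold higher or lower or with a mean signal of at least 64 array medians, on the deposited scale and under 5 other scalings, with signals raised to the floor and dotted lines at 2-fold. *Slc7a7* lies above and *Slc6a13* and *Slc6a17* lie below these lines under every scaling shown.

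Genes that handle amino acids after transport were taken from fixed lists and read by the same rule. Of 13 further amino acid carriers of other families, 8 were measured, 5 (62.5%) were higher and none was lower. For this and the next lists the shares over all genes are the 28.2% higher and 4.77% lower given above, with 40.2% higher among genes between the floor and 16 array medians. Of the genes named below as higher on the deposited scale, *Ddah1* alone stayed above 2-fold after loess, at a log2 ratio of 1.05. The higher carriers of this list included the mitochondrial glutamate carrier *Slc25a22*, with 7.45 array medians in Prom1+ cells, against 2.41 in Prom1- cells. The ornithine carrier *Slc25a15* had 16.7 array medians in Prom1+ cells against 5.59 in Prom1- cells. *Ctns*, the cystine exporter of lysosomes, had 12.2 array medians in Prom1+ cells, against 13.9 in Prom1- cells. Of 13 measured enzymes of glutamate, glutamine and branched-chain amino acids, 6 (46.2%) were higher and none lower. The glutamine synthetase *Glul* had 163 array medians in Prom1+ cells, against 235 in Prom1- cells, 1.44-fold lower, while the mitochondrial transaminase *Got2* had 77.1 array medians in Prom1+ cells against 33.2 in Prom1- cells and was 2.32-fold higher. The branched-chain enzymes *Bcat2* and *Bckdhb* were 3.26-fold and 3.28-fold higher.

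Of 8 measured enzymes of arginine and polyamines, 4 (50%) were higher and none lower. *Ddah1*, which degrades methylated arginines that inhibit nitric oxide synthases, had 67.1 array medians in Prom1+ cells, against 20.1 in Prom1- cells, 3.33-fold higher. *Odc1*, the first enzyme of polyamine synthesis, was 2.39-fold higher, with 24.9 array medians in Prom1+ cells against 10.4 in Prom1- cells. Measured on both arrays, the further carriers, the glutamate enzymes and the arginine enzymes had median log2 ratios of 1.07, 0.99 and 0.99, and 0.65, 0.12 and 0.16 after loess, beside 0.69 and 0.03 over all genes. Of 6 measured genes of glutathione and cysteine, 1 was higher, *Csad* at 2.27-fold, and 1 lower, the aminopeptidase *Anpep*, with 1.64 array medians in Prom1+ cells, against 3.69 in Prom1- cells, at least 2.20-fold lower.

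Of 16 measured genes of the response to amino acid shortage through ATF4, 4 (25%) were higher and 4 (25%) lower, beside 28.2% and 4.77% of all genes. Their median log2 ratio was 0.45, and -0.24 after loess. *Atf4* itself had 117 array medians in Prom1+ cells, against 108 in Prom1- cells. The serine synthesis enzyme *Psat1*, with 10.1 array medians in Prom1+ cells against 2.91 in Prom1- cells, was 3.47-fold higher. The pseudokinase *Trib3*, with 9.57 array medians in Prom1+ cells against 2.97 in Prom1- cells, was 3.22-fold higher. After loess the log2 ratios of *Psat1* and *Trib3* were 0.93 and 0.82, under 2-fold. *Cebpb*, a transcription factor also used in inflammation, had 1.94 array medians in Prom1+ cells, against 14.3 in Prom1- cells, 7.40-fold lower. *Vldlr*, a lipoprotein receptor, had 1.15 array medians in Prom1+ cells, below the floor, against 19.6 in Prom1- cells, at least 11.7-fold lower.

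Of 22 measured genes through which amino acids act on mTORC1, 10 (45.5%) were higher and 1 (4.55%) lower, with a median log2 ratio of 0.94, and 0.07 after loess. Over all genes these medians were 0.69 and 0.03. *Tsc1*, an inhibitor of the pathway, had 19.1 array medians in Prom1+ cells, against 6.32 in Prom1- cells, 3.02-fold higher. *Depdc5*, a further inhibitor, had 8.63 array medians in Prom1+ cells against 3.43 in Prom1- cells, 2.52-fold higher. After loess the log2 ratios of *Tsc1* and *Depdc5* were 0.69 and 0.46, under 2-fold. *Rragd*, a GTPase that recruits mTORC1 to lysosomes, had 3.09 array medians in Prom1+ cells, against 17.1 in Prom1- cells, 5.55-fold lower, the only call of the list in this direction. *Lamtor1*, part of the lysosomal anchor of mTORC1, had 109 array medians in Prom1+ cells against 128 in Prom1- cells. *Rheb*, the GTPase that activates mTORC1, had 67.8 array medians in Prom1+ cells against 52.8 in Prom1- cells, and neither differed by 2-fold.

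**Figure D5:**
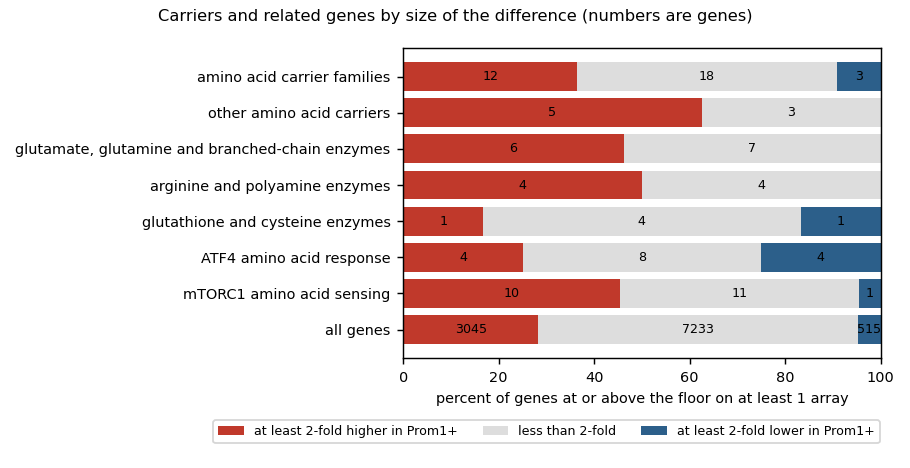
Percent of the genes at or above the floor on at least 1 array that were at least 2-fold higher in the Prom1+ array (red), differed by less than 2-fold (grey) or were at least 2-fold lower (blue), for the carriers, the 6 related lists and all genes, with the number of genes written in each bar. The carriers, at 12 higher and 3 lower of 33, stand beside 3045 higher and 515 lower of 10793 genes.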

How the data were processed

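Total RNA of each sorted population was amplified, labelled with biotin and hybridized to 1 Affymetrix Mouse Genome 430 array. Per the methods, the authors scaled each array to a target of 500 and then used GeneSpring, and the submitters' processing notes name MAS5. The deposited values are log2 signals, with a median of 0 in both columns. Neither unscaled signals nor detection calls were analysed here.

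The deposited log2 values were converted to multiples of the median of their array. A floor of 100 on the scale of the target corresponded, by the average 2% trimmed mean of both arrays, to 1.67 array medians, which 44.6% of probe sets reached in Prom1+ cells and 42.9% in Prom1- cells. With 1 array per population, their number limits the precision, so no p-value was made and genes were counted at 2-fold. Probe sets of 1 gene differed in log2 ratio within this pair of arrays with an SD of 0.54 over 3930 genes. This SD was not used for any call. It leaves out errors shared by all probe sets of a gene and does not cover the spread between animals. Every carrier that reached the floor was to be named, together with the brightest and most different genes of each related list. The members and lists were chosen with earlier results of these data known.

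Of 45101 probe sets, the platform annotation lists 35890. Of these, 34958 carry 1 symbol and were used, 932 carry several, 1 of them with *Slc1a2*, and were left out. All 63 symbols were found in RefSeq. Background was checked with 27 Bacillus control probe sets, whose highest signals were 0.234 array medians in Prom1+ cells and 0.276 in Prom1- cells. Other floors, folds, scalings (among them loess with a span of 0.2) and the choice of probe sets were tried as alternatives. Python 3.11.15, numpy 2.4.6, pandas 2.3.3, statsmodels 0.14.6 and matplotlib 3.10.9 were used.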

Additional observations from a re-analysis of the deposited data

How the results depend on the processing

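The count of 12 carriers at least 2-fold higher and 3 lower moved most with the scaling, as given above: 5 and 6 with equal trimmed means, 4 and 6 with quantile normalization and 3 and 6 with loess, while with the hybridization controls set equal 21 were higher and the median log2 ratio was 1.55. In place of 3, the lower count was 5 with a floor of 50 on the scale of the target, and 1 (*Slc6a17*) with a floor of 200. Over all genes 827 and 301 were then lower, in place of 515. At 1.5-fold 6 carriers were lower, beside 815 of all genes. At 3-fold 4 carriers were higher, beside 712 of all genes. When each gene was given the mean of its probe sets, 1 (*Slc6a13*) was lower, beside 333 of all genes. That setting called 6 carriers higher, beside 2510 of all genes. Of these 6 carriers 5 were among the 12 and *Slc7a6* was new. That mean also reversed *Slc1a4*, to a log2 ratio of -0.20. The cause of these changes was not tested. No paired analysis was possible because each population has 1 array and no test was made, and for the same reason no replicate could be left out. Signals near the floor limit the dim carriers, among them *Slc1a5*, *Slc3a1* and *Slc7a8*.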
